A study of Mus musculus with 6 samples.

Results

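The 40 genes described here encode nuclear receptors, the family of ligand-regulated and orphan transcription factors to which the retinoic acid receptors belong, with the retinoic acid receptor (RAR) and retinoid X receptor (RXR) genes left out. They were picked by gene symbol from a table of 21684 mouse genes, and all 40 symbols were found once each. RNA was sequenced from primary bone marrow haematopoietic cells of mice. The RUNX1-RARA group (3 libraries) was transduced with the fusion of the blood transcription factor RUNX1 with the retinoic acid receptor RARA, a variant of the fusions of acute promyelocytic leukaemia, and the empty vector group (3 libraries) was transduced with the vector alone. The labels give no strain, age, promoter, culture time or number of mice, and no treatment with retinoic acid or another ligand.

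Nuclear receptors share a DNA-binding domain with zinc fingers that reads variants of a short hexamer, and most carry a pocket for a small lipophilic molecule such as a steroid, thyroid hormone, fatty acid or oxysterol. Many bind DNA as a pair with an RXR, and the steroid receptors as pairs of their own kind. With ligand they exchange co-repressors for co-activators, so the amount of receptor, of ligand and of co-regulator all bear on their targets. In blood, the glucocorticoid receptor, PPAR gamma, the liver X receptors and the NR4A receptors are studied for their parts in myeloid and macrophage gene expression.

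The values were FPKM, fragment counts scaled by gene length and library size, so levels could be compared between genes. A gene was tested, with limma on log2(FPKM + 1), if it reached 1 FPKM in 3 of the 6 libraries, and genes with a Benjamini-Hochberg adjusted p under 0.05 over all 10901 tested genes were called. Estimated depths lay between 26.8 and 40.8 M reads in RUNX1-RARA libraries and between 33.4 and 89.6 M reads in empty vector libraries. The groups were far apart as a whole: 77.7% of all tested genes were called, 46% higher and 31.7% lower in RUNX1-RARA, so a call by itself did not set a receptor apart. The summed level of 5 mature neutrophil markers (Ltf, Camp, Ngp, Retnlg and S100a8) was 736 to 992 FPKM in RUNX1-RARA libraries and 25633 to 27275 FPKM in empty vector libraries, and that of 5 macrophage markers (Csf1r, Adgre1, Mrc1, Msr1 and C1qa) was 36.8 to 39.1 and 125 to 129 FPKM, so in these bulk samples fewer cells of a type and less RNA per cell cannot be told apart. The blood markers were present in all libraries and moved both ways: the progenitor genes Cd34 and Kit were called higher, with ratios of 9.27 and 1.41, and Itgam, Spi1 and Ptprc lower, with ratios of 0.0961, 0.287 and 0.482. These shifts accompany every receptor change described below, and their part in those changes was not tested. The summed markers of B cells, hepatocytes and adipocytes stayed under 1 FPKM in every library. All 5 neutrophil markers were called lower, and 4 of the 5 macrophage markers, with Adgre1 not called at 33.2 to 36.1 FPKM in RUNX1-RARA libraries and 34 to 37.5 FPKM in empty vector libraries. The erythroid list summed to 26.6 to 31.5 FPKM in RUNX1-RARA libraries and 1.2 to 1.98 FPKM in empty vector libraries, nearly all of it the globin gene Hbb-bt. The T and NK cell list summed to 58.6 to 77.9 and 25.8 to 28.7 FPKM, carried by Nkg7, with Cd3e and Cd2 at 0 in RUNX1-RARA libraries, and the stroma and endothelium list to 91.8 to 93.4 and 34.3 to 35.6 FPKM, carried by Pecam1. Of the megakaryocyte genes, Itga2b was called higher and Pf4 and Ppbp lower. The markers Retnlg, Mrc1, Msr1, C1qa and Ppbp were tested by way of the empty vector libraries alone, so a rise of these could hardly have been called.

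Of the 40 receptor genes, 15 passed the filter and 25 did not. Of the 25, 8 were at 0 in all 6 libraries. Pgr, Nr1d1, Nr2f6 and Esr1 entered by way of the RUNX1-RARA libraries alone, and for these 4 the filter could hardly let through a fall. Among the 15 tested genes, 9 were called higher and 4 lower in RUNX1-RARA, and without those 4 genes 5 were higher. The median log2 fold change was 0.22 over the 15 genes and 0.11 over all tested genes. A change of at least 1 on that scale was found for 3 of them, Pgr, Ppard and Pparg, and for 15.8% of all tested genes. The groups did not overlap for 13 of the 15, against 79.1% of all tested genes.

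**Figure D1:**
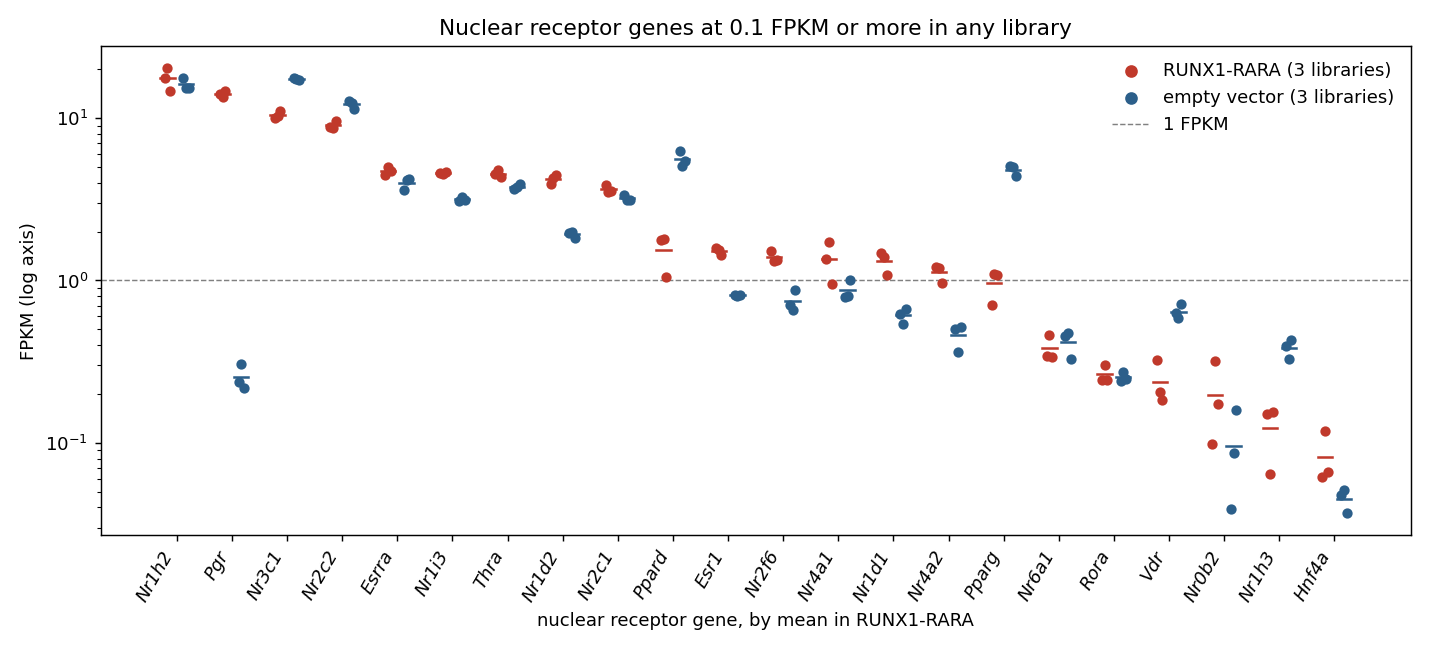
FPKM on a log axis for the 22 nuclear receptor genes that reached 0.1 FPKM in any library, with 1 point per library, a bar at the group mean, RUNX1-RARA in red and empty vector in blue. Pgr stands at 13.6 to 14.7 FPKM in RUNX1-RARA libraries and at 0.219 to 0.306 FPKM in empty vector libraries, while Ppard and Pparg lie lower in all RUNX1-RARA libraries.

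The promoters of 3 receptors are shown because Pgr had the largest change of the family and Nr1d1 and Nr1d2 encode a pair of close relatives that rose together. That of Pparg is shown as the gene with the largest fall. Each is the 250 bases before a RefSeq transcript start on GRCm38.p6, the build that mm10 follows, and is written 5′ to 3′ on the strand of the gene. Capitals mark matches on either strand to TATAAA or to CCAAT or to GGGCGG or to the receptor hexamer AGGTCA. The other motifs searched had no match in these windows, and Nr1d1 had none of any kind. They were taken from chr9:8899583-8899832 (plus strand) for Pgr, chr11:98775378-98775627 (minus strand) for Nr1d1, chr14:18239107-18239356 (minus strand) for Nr1d2 and chr6:115362099-115362348 (plus strand) for Pparg, which has 3 such windows.
Pgr: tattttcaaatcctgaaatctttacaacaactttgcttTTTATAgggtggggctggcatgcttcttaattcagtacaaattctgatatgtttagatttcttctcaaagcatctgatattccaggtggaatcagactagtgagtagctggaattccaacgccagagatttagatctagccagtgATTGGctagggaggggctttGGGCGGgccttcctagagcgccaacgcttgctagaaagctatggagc
Nr1d1: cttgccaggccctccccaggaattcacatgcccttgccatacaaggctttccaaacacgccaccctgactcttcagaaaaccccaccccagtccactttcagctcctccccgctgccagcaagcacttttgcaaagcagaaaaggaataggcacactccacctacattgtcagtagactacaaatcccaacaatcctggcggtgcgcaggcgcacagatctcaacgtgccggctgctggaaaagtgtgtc
Nr1d2: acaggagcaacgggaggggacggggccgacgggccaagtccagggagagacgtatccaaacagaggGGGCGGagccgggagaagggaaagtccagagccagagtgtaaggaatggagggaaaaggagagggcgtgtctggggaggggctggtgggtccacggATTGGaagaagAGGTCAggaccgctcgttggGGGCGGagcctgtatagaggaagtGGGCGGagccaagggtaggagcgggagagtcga
Pparg: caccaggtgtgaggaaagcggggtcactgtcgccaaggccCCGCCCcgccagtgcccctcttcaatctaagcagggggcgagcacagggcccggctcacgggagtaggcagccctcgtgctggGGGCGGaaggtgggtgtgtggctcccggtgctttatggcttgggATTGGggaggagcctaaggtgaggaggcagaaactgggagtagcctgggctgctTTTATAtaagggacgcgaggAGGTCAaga
The Pgr window had 43.6% G and C, against a median of 52.4% over the 32851 RefSeq windows, and the Nr1d1, Nr1d2 and Pparg windows had 54.8%, 63.6% and 63.6%. Matches were counted in windows of 300 bases, from 250 before to 50 after the start, on both strands. A promoter window was found for 36 of the 40 receptors (all but Thra, Nr3c1, Hnf4g and Nr5a1), 50 windows in all. AGGTCA was present in 8 of the 50 windows (16%) and in 16.3% of all windows, among them those of Nr1d2 and 2 of the 3 of Pparg, and was not in the Pgr or Nr1d1 window. The RUNX core TGTGGT was present in 5 of the 50 (10%) and in 16.8% of all windows. TGTTCT, a hexamer read by some but not all steroid receptors, was in 5 of the 50 (10%) and in 19% of all windows. Neither TGTGGT nor TGTTCT was in the windows of Pgr, Nr1d1, Nr1d2 or Pparg. Direct repeats of AGGTCA with 5 bases between, a form bound by retinoic acid receptors, were in 0 of the 50 windows and in 3 of all 32851. CCAAT was present in 19 of the 50 windows (38%) and in 37.4% of all windows, GGGCGG in 21 (42%) and 35.7%, TATAAA in 8 (16%) and 13.6%, and the E-box CACGTG in 4 (8%) and 7.15%. A match is only a run of letters, and nothing on binding follows from its presence or absence.

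The steroid receptor genes split. Pgr encodes the progesterone receptor, best known from the uterus and mammary gland (ENSMUSG00000031870, chromosome 9, 8899833 to 8968611 on mm10). It stood at 14.1, 13.6 and 14.7 FPKM in RUNX1-RARA libraries, against 0.238, 0.306 and 0.219 FPKM in empty vector libraries. Every RUNX1-RARA library was far above every empty vector library. The mean was 14.1 ± 0.547 FPKM in RUNX1-RARA and 0.254 ± 0.0457 FPKM in empty vector (SD, n = 3 each), a ratio of 55.5 and a log2 difference of 3.59 (SE 0.0607, limma adjusted p = 7.7e-12). This was the 13th largest rise among the 10901 tested genes, and 0.761% of them had a ratio of 10 or more. The estimated reads behind Pgr were 3211 to 5105 in RUNX1-RARA libraries and 62.5 to 182 in empty vector libraries, so the low level rested on more than a few reads.

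The neighbours of Pgr did not share its level. Within 1000 kb of its start, the table held 5 other genes, looked up after the value of Pgr was seen. Cep126, whose start lies at -765.5 kb, averaged 0.669 ± 0.0255 FPKM in RUNX1-RARA and 0.236 ± 0.0274 FPKM in empty vector (SD, n = 3 each), and Trpc6, at -355.7 kb, 0.508 ± 0.0461 and 0.328 ± 0.039 FPKM. The other 3, Yap1, Cfap300 and Arhgap42, were at or under 0.108 FPKM in every library, and all 5 lay under the filter and were not tested.

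Esr1, which encodes oestrogen receptor alpha, was also higher. It stood at 1.58, 1.54 and 1.44 FPKM in RUNX1-RARA libraries, against 0.811, 0.8 and 0.817 FPKM in empty vector libraries, with no overlap. The ratio of means was 1.88 and the log2 fold change 0.48 (SE 0.0581, limma adjusted p = 2.75e-05). Esr2, the beta form, was at 0 in all RUNX1-RARA libraries and between 0.018 and 0.029 FPKM in empty vector libraries, which is 2.03 to 6.94 estimated reads.

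Nr3c1, the gene of the glucocorticoid receptor, fell. It had 10.1, 10.2 and 11.1 FPKM in RUNX1-RARA libraries, against 17.7, 17.4 and 17.0 FPKM in empty vector libraries. The groups did not overlap, with means of 10.5 ± 0.565 FPKM in RUNX1-RARA and 17.4 ± 0.323 FPKM in empty vector (SD, n = 3 each), a ratio of 0.603 and a log2 difference of -0.68 (SE 0.0561, limma adjusted p = 1.42e-06). After scaling to equal sums without the mitochondrially encoded genes it was -0.43 and still called. Nr3c2, the gene of the mineralocorticoid receptor, was listed at 0, 0.011 and 0 FPKM in RUNX1-RARA libraries and at 0.034 to 0.064 FPKM in empty vector libraries.

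Esrra, the gene of the oestrogen-related receptor alpha, an orphan regulator of mitochondrial genes, was a borderline call. It stood at 4.45, 4.99 and 4.74 FPKM in RUNX1-RARA libraries, against 3.59, 4.18 and 4.22 FPKM in empty vector libraries, and the log2 fold change was 0.20 (SE 0.0703, limma adjusted p = 0.0247). The call was lost under 5 of 17 alternatives, among them trimmed mean of M-values (TMM) scaling, which moved the median of all tested genes by -0.11 on the log2 scale and gave 0.09 (adjusted p = 0.247), and the fits that left out RUNX1-RARA replicate 2 (0.17, adjusted p = 0.0816) or the first empty vector library (0.14, adjusted p = 0.109). Over all alternatives its adjusted p ran from 2.74e-04 to 0.247.

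The largest falls among the tested receptors were those of the fatty acid receptors. Pparg, whose product directs lipid handling in adipocytes and in alveolar and other macrophages, stood at 0.703, 1.1 and 1.09 FPKM in RUNX1-RARA libraries, against 5.03, 4.98 and 4.39 FPKM in empty vector libraries. The ratio of means was 0.2 and the log2 fold change -1.57 (SE 0.0899, limma adjusted p = 8.01e-08). Ppard, the gene of the broadly expressed PPAR delta, stood at 1.79, 1.79 and 1.05 FPKM in RUNX1-RARA libraries, against 6.28, 5.04 and 5.42 FPKM in empty vector libraries. RUNX1-RARA replicate 3 was the lowest, and the groups did not overlap. The ratio was 0.277 and the log2 fold change -1.38 (SE 0.119, limma adjusted p = 2.03e-06). Ppara was at 0 in all 6 libraries. Beside these falls, 4 of the 5 macrophage markers were lower, with C1qa at 0 and Msr1 at 0 to 0.006 FPKM in RUNX1-RARA libraries. Adgre1 was not called, with means of 34.5 FPKM in RUNX1-RARA and 35.8 FPKM in empty vector. The part of these markers in the result was not tested.

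Of the liver X receptors, which sense oxysterols, the broadly expressed Nr1h2 (LXR beta) was not called. It had the highest mean of the 40 genes in RUNX1-RARA cells. It stood at 17.7, 20.3 and 14.6 FPKM in RUNX1-RARA libraries, against 17.8, 15.3 and 15.4 FPKM in empty vector libraries, with overlapping groups and a log2 difference of 0.10 (SE 0.104, limma adjusted p = 0.383). Without RUNX1-RARA replicate 3 it was called higher (0.22, adjusted p = 0.0334), and so it was after scaling to equal sums without the mitochondrially encoded genes (0.36, adjusted p = 0.0114). The direction turned without RUNX1-RARA replicate 2 (-0.0025, adjusted p = 0.982) and after TMM scaling (-0.018, adjusted p = 0.891). The mitochondrially encoded genes took 21.9% to 26.3% of the FPKM sum in RUNX1-RARA libraries and 7.96% to 10.6% in empty vector libraries, and leaving them out moved the median of all tested genes by 0.24 on the log2 scale.

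Nr1h3 (LXR alpha, the macrophage and liver form) and Vdr (the vitamin D receptor) lay under the filter. Nr1h3 stood at 0.151, 0.064 and 0.154 FPKM in RUNX1-RARA libraries, against 0.393, 0.328 and 0.43 FPKM in empty vector libraries. Vdr stood at 0.324, 0.207 and 0.184 FPKM in RUNX1-RARA libraries, against 0.634, 0.584 and 0.712 FPKM in empty vector libraries. Neither gene's groups overlapped. In a limma fit with no filter on low values, where 61.2% of 16289 genes were called, both were lower (adjusted p = 7.54e-04 for Nr1h3 and 4.34e-04 for Vdr).

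The REV-ERB genes rose together. Nr1d1 and Nr1d2 encode the haem-binding repressors REV-ERB alpha and beta, which close a feedback loop of the circadian clock by holding down genes such as Arntl. Nr1d2 stood at 3.96, 4.25 and 4.44 FPKM in RUNX1-RARA libraries, against 1.96, 1.98 and 1.83 FPKM in empty vector libraries. The ratio of means was 2.19 and the log2 fold change 0.83 (SE 0.0619, limma adjusted p = 6.24e-07). Nr1d1 stood at 1.49, 1.4 and 1.08 FPKM in RUNX1-RARA libraries, against 0.619, 0.541 and 0.666 FPKM in empty vector libraries. Its ratio was 2.17, close to that of Nr1d2, and its log2 fold change was 0.53 (SE 0.0783, limma adjusted p = 1.24e-04). Rora, an activator that binds the same DNA element, had 0.244 to 0.302 FPKM in RUNX1-RARA libraries and 0.239 to 0.272 FPKM in empty vector libraries, and was not called in the fit without a filter (adjusted p = 0.696). Its relative Rorb was at or under 0.019 FPKM throughout.

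Thra, the gene of thyroid hormone receptor alpha, stood at 4.56, 4.76 and 4.35 FPKM in RUNX1-RARA libraries, against 3.66, 3.74 and 3.95 FPKM in empty vector libraries. The groups did not overlap and the log2 fold change was 0.22 (SE 0.0596, limma adjusted p = 0.0071). After TMM scaling it was 0.11 and not called (adjusted p = 0.117), and after scaling without the mitochondrially encoded genes 0.43. Over all alternatives the adjusted p ran from 7.25e-05 to 0.117. Thrb, the beta form, was at or under 0.041 FPKM in every library.

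The NR4A receptors, orphan factors induced within minutes of a stimulus in many cells, were low. Nr4a1 (NUR77) stood at 1.36, 1.74 and 0.948 FPKM in RUNX1-RARA libraries, against 0.788, 0.806 and 1.01 FPKM in empty vector libraries. RUNX1-RARA replicate 3 lay below the highest empty vector library, so the groups overlapped, and the call (log2 fold change 0.32, SE 0.112, limma adjusted p = 0.0239) was lost under 6 of 17 alternatives. Leaving out RUNX1-RARA replicate 1 gave 0.31 with an adjusted p of 0.058, and leaving out RUNX1-RARA replicate 2 gave 0.20 with 0.0824. Leaving out empty vector replicate 1 gave 0.29 with an adjusted p of 0.0691, and leaving out empty vector replicate 2 gave 0.29 with 0.0608. The adjusted p ran from 0.0014 to 0.0824 over all alternatives. Nr4a2 (NURR1) fell just outside the filter, with 1.21, 1.2 and 0.963 FPKM in RUNX1-RARA libraries, against 0.502, 0.362 and 0.519 FPKM in empty vector libraries, and was called higher without the filter (adjusted p = 3.77e-04). Nr4a3 had 0.048 to 0.066 FPKM in RUNX1-RARA libraries and 0.033 to 0.06 FPKM in empty vector libraries.

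Among the orphan receptors, Nr2c2 (the testicular receptor TR4) fell and its paralogue Nr2c1 (TR2) did not pass. Nr2c2 stood at 8.87, 8.66 and 9.58 FPKM in RUNX1-RARA libraries, against 12.8, 12.4 and 11.4 FPKM in empty vector libraries, a log2 difference of -0.40 (SE 0.0626, limma adjusted p = 1.93e-04). After scaling without the mitochondrially encoded genes it was -0.15 (adjusted p = 0.0436). Nr2c1 stood at 3.9, 3.49 and 3.57 FPKM in RUNX1-RARA libraries, against 3.34, 3.14 and 3.15 FPKM in empty vector libraries, just over the threshold (log2 fold change 0.14, SE 0.0611, limma adjusted p = 0.0527). It was called higher under 4 of 17 alternatives, and its adjusted p ran from 3.06e-04 to 0.521. The difference between the changes of the paralogues was not tested.

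Nr2f6 (an orphan of the COUP family) and Nr1i3 were called higher. Nr2f6 stood at 1.52, 1.31 and 1.34 FPKM in RUNX1-RARA libraries, against 0.706, 0.656 and 0.878 FPKM in empty vector libraries (log2 fold change 0.45, SE 0.0706, limma adjusted p = 1.74e-04). Nr1i3, the gene of the constitutive androstane receptor known from hepatocytes, stood at 4.59, 4.51 and 4.65 FPKM in RUNX1-RARA libraries, against 3.07, 3.27 and 3.14 FPKM in empty vector libraries (log2 fold change 0.42, SE 0.0559, limma adjusted p = 5.02e-05). The hepatocyte markers Alb, Ttr and Apoa1 were at or under 0.412 FPKM in every library.

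These orphan genes share exon bases with genes on the opposite strand, and the strand setting of the counting is not given in the sources used here. In the GENCODE M21 annotation, 74.9% of the exon bases of Nr1i3 also belong to Tomm40l, a gene of a mitochondrial import protein. Tomm40l stood at 5.31, 4.54 and 5.05 FPKM in RUNX1-RARA libraries, against 3.67, 3.92 and 3.57 FPKM in empty vector libraries, levels near those of Nr1i3 and a log2 difference of 0.34 (SE 0.067, limma adjusted p = 9.73e-04). Nr2f6 shares 54.4% of its exon bases with Ocel1, which was not called (log2 fold change 0.15, SE 0.072, limma adjusted p = 0.0864), and Nr2c2 shares 30.7% with the mitochondrial ribosomal protein gene Mrps25, which was lower (log2 fold change -0.20, SE 0.0606, limma adjusted p = 0.013). Nr1d1 and Thra share 263 bases, 8.55% of the exons of Nr1d1 and 5.7% of those of Thra, and Esrra shares 1.66% with Trmt112. The levels of Nr1i3, Nr2f6 and Nr2c2 are therefore uncertain. So are those of Nr1d1 and Esrra, which share fewer bases but whose partners Thra and Trmt112 stood at higher FPKM. How many reads of these genes came from the partner was not tested.

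**Figure D2:**
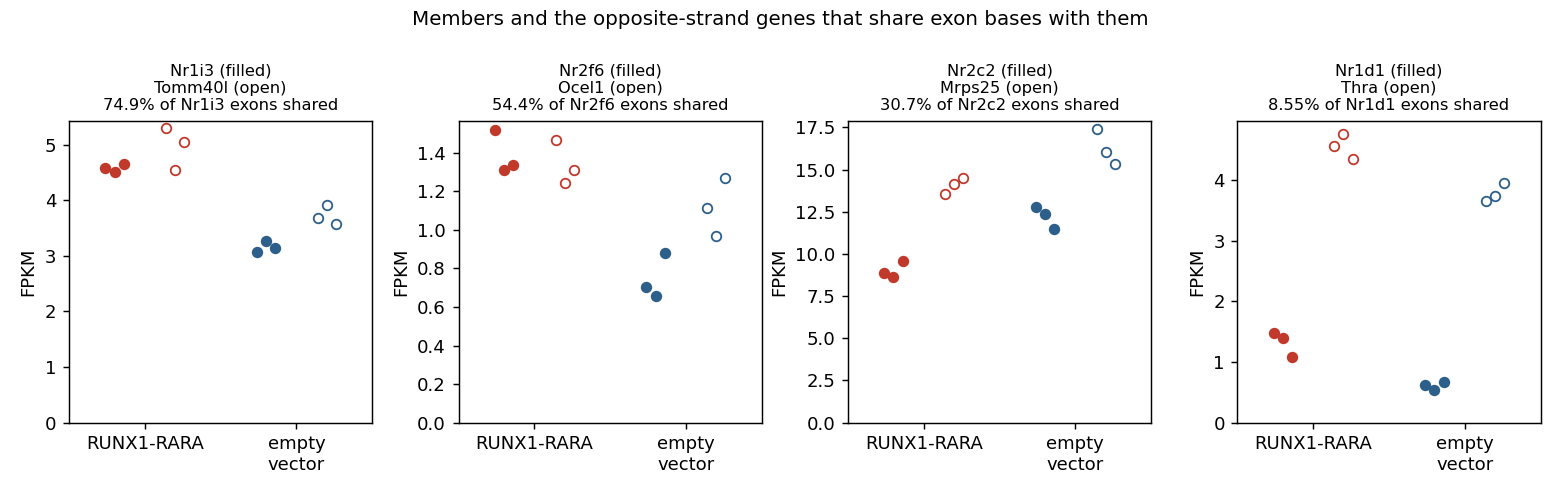
FPKM per library of 4 nuclear receptor genes (filled points) and of the opposite-strand gene that shares exon bases with each (open points), RUNX1-RARA in red and empty vector in blue, with each vertical axis starting at 0. Nr1i3 at 4.51 to 4.65 FPKM in RUNX1-RARA and 3.07 to 3.27 FPKM in empty vector runs close to Tomm40l, while Nr1d1 lies well below Thra.

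The remaining receptors were near or at 0. Nr6a1 (germ cell nuclear factor) had 0.338 to 0.461 FPKM in RUNX1-RARA libraries and 0.33 to 0.474 FPKM in empty vector libraries. Nr0b2 (small heterodimer partner, which lacks a DNA-binding domain) had 0.099 to 0.317 and 0.039 to 0.16 FPKM, and Hnf4a (a liver and gut factor) 0.062 to 0.119 and 0.037 to 0.051 FPKM. Nr1h4 (the bile acid receptor FXR) was at or under 0.039 FPKM in every library and Nr1i2 (the xenobiotic receptor PXR) at or under 0.017 FPKM. Nr2e1, Nr2f1 and Esrrg were each listed above 0 in 1 library, at 0.008 FPKM or less. Ppara, Hnf4g, Nr2e3, Nr2f2, Esrrb, Nr5a1, Nr5a2 and Nr0b1 were listed at 0 in all 6 libraries. In all, 17 of the 25 genes outside the filter entered the fit without a filter. Of these, 5 were called (Nr1h3, Vdr, Esr2 and Nr3c2 lower and Nr4a2 higher), against 61.2% of all 16289 genes in that fit.

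**Figure D3:**
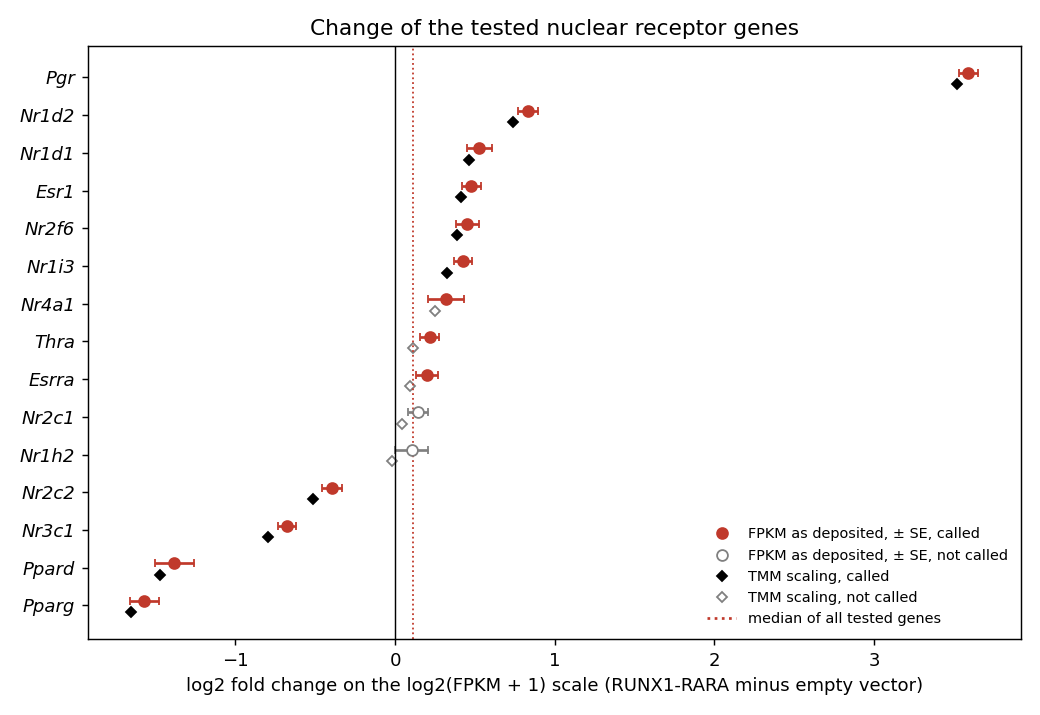
Log2 fold change (RUNX1-RARA minus empty vector) of the 15 tested nuclear receptor genes with values as log2(FPKM + 1), as circles with SE for FPKM as deposited and as diamonds after TMM scaling, filled where called. The dotted line is the median of all tested genes, 0.11, and Pgr at 3.59 stands apart from the other 14, which lie between -1.57 and 0.83.

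The order of levels changed with Pgr. In RUNX1-RARA cells the most abundant of the 40 genes (mean ± SD, n = 3) were Nr1h2 (17.5 ± 2.84 FPKM), Pgr (14.1 ± 0.547 FPKM), Nr3c1 (10.5 ± 0.565 FPKM) and Nr2c2 (9.03 ± 0.48 FPKM). The libraries of Nr1h2 and Pgr overlapped. Next came Esrra, Nr1i3, Thra and Nr1d2 between 4.22 and 4.73 FPKM, each overlapping its neighbour, then Nr2c1 at 3.65 FPKM. From Ppard at 1.54 FPKM down to Pparg at 0.961 FPKM, each gene overlapped the next. In empty vector cells the order was Nr3c1 (17.4 ± 0.323 FPKM), Nr1h2 (16.2 ± 1.4 FPKM), Nr2c2 (12.2 ± 0.688 FPKM), Ppard (5.58 ± 0.638 FPKM) and Pparg (4.8 ± 0.359 FPKM; SD, n = 3), of which Nr3c1 and Nr1h2 overlapped.

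The summed level of the 40 genes was 83.1, 86.4 and 80.9 FPKM in RUNX1-RARA libraries, against 80.8, 76.8 and 76.2 FPKM in empty vector libraries. Pgr made up 15.7% to 18.1% of that sum in RUNX1-RARA libraries and 0.287% to 0.398% in empty vector libraries. Without Pgr the sum was 66.2 to 72.8 FPKM in RUNX1-RARA libraries and 76.0 to 80.6 FPKM in empty vector libraries, and the groups overlapped in neither sum. These orders depended on the scaling, in a comparison chosen after seeing the data. After scaling to equal sums without the mitochondrially encoded genes, the sum without Pgr was 72.4 to 81.9 FPKM in RUNX1-RARA libraries and 69.1 to 74.5 FPKM in empty vector libraries, overlapping and with the direction turned. After TMM scaling it was 62.9 to 70.5 and 79.1 to 84.7 FPKM, and the full sum overlapped, at 76.8 to 83.6 FPKM in RUNX1-RARA libraries and 79.4 to 84.9 FPKM in empty vector libraries. Nr1h2, Nr3c1 and Nr2c2 together held 43.7% to 45.4% of the full sum in RUNX1-RARA libraries and 57.6% to 59.7% in empty vector libraries.

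**Figure D4:**
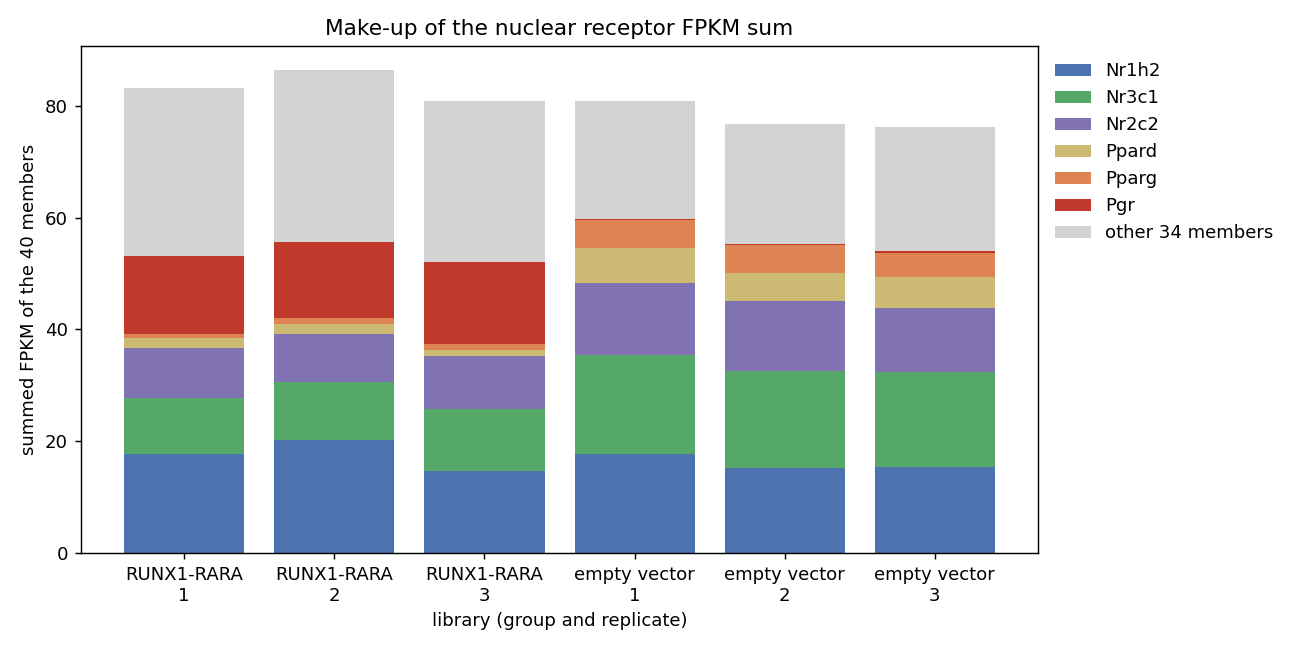
Summed FPKM of the 40 nuclear receptor genes in each library as stacked bars, with 6 genes in colour and the other 34 in grey, RUNX1-RARA libraries on the left. The totals are 80.9 to 86.4 FPKM in RUNX1-RARA and 76.2 to 80.8 FPKM in empty vector, in FPKM as deposited, and Pgr takes 15.7% to 18.1% of the bar in RUNX1-RARA and 0.287% to 0.398% in empty vector.

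Genes that work with the receptors were read from lists of known targets, co-regulators and ligand enzymes. For FPKM as deposited, the counts below stand against 46% higher and 31.7% lower among all tested genes, whose median log2 fold change was 0.11. After scaling without the mitochondrially encoded genes, 6893 of the 10901 tested genes were higher and 2370 lower, with a median of 0.35. After TMM scaling, 4072 were higher and 4199 lower, with a median of -0.0039. In these lists Smpdl3a, Abca1, Mertk, Fabp4, Hlf, Alox15, Atf3 and Egr2 were tested through the empty vector libraries alone, and Zbtb16 and Ppargc1b through the RUNX1-RARA libraries alone. The RXRs, with which the PPARs, liver X receptors, Vdr and thyroid hormone receptors pair, were higher: Rxra at 1.79 ± 0.216 FPKM in RUNX1-RARA and 1.16 ± 0.114 FPKM in empty vector (limma adjusted p = 0.00117), and Rxrb at 14.7 ± 0.738 and 10.4 ± 0.0823 FPKM (SD, n = 3 each; limma adjusted p = 2.2e-05). Rxrg was listed at 0 in all libraries.

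Of 19 tested co-activators and co-repressors, 7 were higher and 8 lower, with a median log2 fold change of -0.12 against 0.11 over all tested genes. Nrip1 (RIP140, a co-repressor recruited by ligand-bound receptors) rose to 11.1 ± 0.537 FPKM in RUNX1-RARA, against 3.48 ± 0.162 FPKM in empty vector (SD, n = 3 each), the largest change of the list (log2 fold change 1.43, SE 0.0603, limma adjusted p = 7.35e-09). Pprc1, a relative of the co-activator PGC-1, rose with a ratio of 1.9, and Hdac3, the deacetylase of the NCoR complex, with a ratio of 1.77. The steroid receptor co-activator genes Ncoa1, Ncoa2 and Ncoa3, named after their values were seen, had ratios of 0.514, 0.771 and 0.748 and were called lower, although Ncoa2 was not called after scaling without the mitochondrially encoded genes (adjusted p = 0.123). The split was 6 higher and 11 lower after TMM scaling. After scaling without the mitochondrially encoded genes it was 9 higher and 6 lower. The median of the list then turned to 0.14, below the 0.35 of all tested genes.

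Of 12 liver X receptor targets, 2 were higher and 7 lower (median log2 fold change -0.38), or 5 and 6 after scaling without the mitochondrially encoded genes and 2 and 8 after TMM scaling. The macrophage genes Smpdl3a, a phosphodiesterase, and Lpl, lipoprotein lipase, fell to 0.714 ± 0.121 and 3.04 ± 0.112 FPKM in RUNX1-RARA, against 39.7 ± 2.31 and 82.8 ± 1.77 FPKM in empty vector (SD, n = 3 each). Apoe, the lipid carrier apolipoprotein E, fell with a ratio of 0.172 (log2 fold change -2.27, SE 0.103, limma adjusted p = 1.34e-08). Of genes named after their values were seen, the cholesterol efflux transporter gene Abca1 was lower with a ratio of 0.0594, and its relative Abcg1 was not called (adjusted p = 0.0545). Fasn, fatty acid synthase, was higher, Scd2, a desaturase, was lower with a ratio of 0.83, and Srebf1, a regulator of lipogenesis, was not called (adjusted p = 0.121). The call of Scd2 was lost after scaling without the mitochondrially encoded genes (adjusted p = 0.971). The 4 of 5 macrophage markers that were lower stand beside these falls, and their part was not tested.

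PPAR targets went both ways, 5 higher and 4 lower of 9 tested (median log2 fold change 0.16). Fabp4, a lipid chaperone of adipocytes and macrophages, was listed at 0 in all RUNX1-RARA libraries and at 3.06 to 3.46 FPKM in empty vector libraries, and Plin2, a lipid droplet coat protein, fell with a ratio of 0.336. Angptl4, a secreted inhibitor of lipoprotein lipase, rose to 3.94 ± 0.432 FPKM in RUNX1-RARA, against 1.05 ± 0.0777 FPKM in empty vector (SD, n = 3 each). The split was 4 higher and 4 lower after TMM scaling, and 5 and 3 after scaling without the mitochondrially encoded genes. With no filter on low values, 13 of these targets entered the fit, and 5 were higher and 7 lower (median log2 fold change -0.13). Among all 16289 genes in that fit, 5596 were higher and 4367 lower.

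Glucocorticoid receptor targets were 3 higher and 8 lower of 11 tested (median log2 fold change -0.76). After scaling without the mitochondrially encoded genes they were 3 higher and 6 lower, with Fkbp5 and Ddit4 no longer called. Il1r2, the decoy receptor of interleukin-1, fell to 4.81 ± 0.15 FPKM in RUNX1-RARA, against 115 ± 3.86 FPKM in empty vector (SD, n = 3 each). Anxa1, the anti-inflammatory protein annexin A1, fell with a ratio of 0.223 and the kinase gene Sgk1 with a ratio of 0.183. The 3 called higher, Zbtb16, Per1 and Klf9, named after their values were seen, had ratios of 3.93, 1.31 and 1.21. Klf9 was not called after TMM scaling. Il1r2 and Anxa1 are also abundant in mature myeloid cells, whose markers were lower, and the part of that was not tested.

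Clock genes were 5 higher and 7 lower of 13 tested (median log2 fold change -0.30), and 5 higher and 5 lower, with a median of -0.059, after scaling without the mitochondrially encoded genes. Tef, a D-box activator, rose to 7.45 ± 0.454 FPKM in RUNX1-RARA, against 1.52 ± 0.0524 FPKM in empty vector, and Ciart, a clock repressor, to 3.55 ± 0.18 against 1.28 ± 0.0237 FPKM (SD, n = 3 each). Hlf, a D-box factor also known from stem cells, fell with a ratio of 0.346. Of genes named after their values were seen, Dbp (ratio 2.23) and Cry2 (1.72) were higher. Among genes that REV-ERB proteins are known to repress in other tissues, Clock (0.59), Nfil3 (0.648) and Arntl (0.769) were lower, and Cry1 was not called (adjusted p = 0.173). Npas2 lay under the filter and went the other way, with 0.376, 0.555 and 0.4 FPKM in RUNX1-RARA libraries, against 0.1, 0.133 and 0.063 FPKM in empty vector libraries. With no filter on low values, the clock genes were 6 higher and 7 lower of 15. Among all 16289 genes in that fit, 5596 were higher and 4367 lower. The call of Arntl was lost after scaling without the mitochondrially encoded genes (log2 fold change -0.088, adjusted p = 0.367).

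Of 18 genes that make, break down or carry receptor ligands, 6 were tested, 0 were higher and 5 lower (median log2 fold change -1.24), or 1 and 4 after scaling without the mitochondrially encoded genes. Alox15, the lipoxygenase that makes fatty acid ligands, fell to 0.0457 ± 0.0626 FPKM in RUNX1-RARA, against 7.86 ± 0.559 FPKM in empty vector, and Hsd11b1, which regenerates active glucocorticoid, to 6.14 ± 0.271 against 50.0 ± 3.46 FPKM (SD, n = 3 each). Hmox1, the haem oxygenase that degrades the ligand of the REV-ERBs, fell with a ratio of 0.303. Immediate early genes, which share inducers with the NR4A receptors, were 1 higher and 8 lower of 10 tested (median log2 fold change -0.99), or 2 and 7 after scaling without the mitochondrially encoded genes and 0 and 8 after TMM scaling. Fos, Atf3 and Egr2, transcription factors of that response, fell with ratios of 0.168, 0.132 and 0.176.

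**Figure D5:**
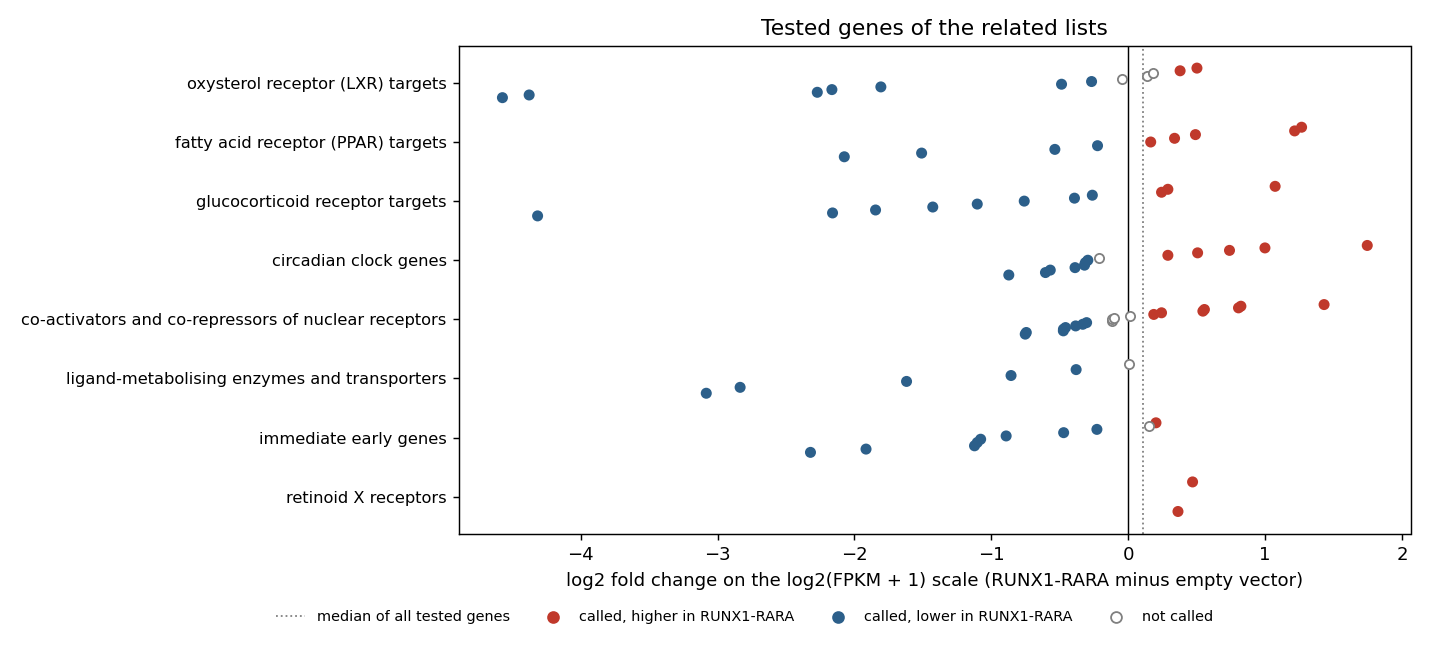
Log2 fold change (RUNX1-RARA minus empty vector, of log2(FPKM + 1) values) for each tested gene of the 8 related lists, 1 point per gene, red where called higher, blue where called lower and open where not called. The dotted line is the median of all tested genes, 0.11, and the lists of PPAR targets, clock genes and co-regulators hold calls on both sides of 0.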

How the data were processed

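RNA was extracted with TRIzol and sequenced on an Illumina instrument, per the labels' protocols. The deposited values are FPKM computed by the authors, for 21684 mouse genes. The submitters' processing notes name the aligner HISAT2 (2.2.1), the read trimmer fastp (0.22.0), the counter featureCounts (2.0.1), DESeq2 (1.32.0), and the builds mm10 and hg38, with no roles. Annotation release, strand setting and treatment of shared reads: not given in the sources used here.

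Groups followed the genotype labels. limma 3.58.1 (R 4.3.3, trended prior) was fitted to log2(FPKM + 1) of the 10901 genes that reached 1 FPKM in 3 libraries. Benjamini-Hochberg adjustment was over all of them. The fit was also run on simulated data. That simulation changed a small part of the genes, with as many rises as falls, so it does not cover the broad shift seen here. Differences are RUNX1-RARA over empty vector and understate low genes, and ratios are of mean FPKM. Nothing in the labels says that libraries came from separate mice or cultures, so p-values cover the spread among these libraries, possibly technical. Over genes with many estimated reads, the median squared log difference between replicates was 3.13 to 16.5 times that estimated from sampling alone. No replicates were merged. Depth was estimated from the steps of low FPKM values with GENCODE M21 lengths (86.8% to 89.7% of them within 0.1 of a whole read) and is firm only in relative terms. No counts were rebuilt.

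The 40 members and the lists were chosen with earlier results of these data known. All tested members are named, with up to 3 called genes of largest change per list and every RXR. Alternatives covered pseudocounts, filters, scalings, the prior, a replicate block and leaving out each library. Bmal1 was matched to Arntl by RefSeq synonyms.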

Additional observations from a re-analysis of the deposited data

How the results depend on the processing

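The calls of Pgr, Pparg, Ppard, Nr3c1, Nr2c2, Nr1d1, Nr1d2, Esr1, Nr2f6 and Nr1i3 kept their direction and their side of the threshold under each of the 17 alternatives that tested them, and those of Thra, Esrra, Nr4a1, Nr2c1 and Nr1h2 did not. The log2 fold change of Pgr ran from 3.52 to 5.33 (5.33 with a pseudocount of 0.1), and that of Pparg from -2.23 to -1.39. Nr1d1 was not tested where a mean of at least 1 FPKM over all libraries was required. No alternative dealt with the exon bases shared with opposite-strand genes, so the levels of Nr1i3, Nr2f6, Nr2c2, Nr1d1 and Esrra stay uncertain. Over members and alternatives, 234 values kept their direction and side of the threshold, 12 lost a call, 6 gained one and 2 turned direction, both for Nr1h2 (-0.018 after TMM scaling and -0.0025 without RUNX1-RARA replicate 2). Nr1h2 was called at 0.22 without RUNX1-RARA replicate 3 and at 0.36 after scaling without the mitochondrially encoded genes. The cause was not tested. With a pseudocount of 0.1, Esr1, Nr2f6 and Nr1d1 had larger log2 fold changes (0.83, 0.82 and 0.997).

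With no filter on low values 8 instead of 4 members were called lower, since 4 genes under the filter were then called lower. Among all 16289 genes in that fit, 5596 were called higher and 4367 lower. Leaving out 1 library at a time gave 7 to 10 members higher and 4 lower. Among all 10901 tested genes, 4702 to 4941 were then higher and 3269 to 3489 lower. The share of called genes that were higher, 59.2% (40.8% lower) in the fit as reported, was 49.2% (50.8% lower) after TMM scaling and 74.4% (25.6% lower) after scaling without the mitochondrially encoded genes.

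Replicate numbers gave no sign of pairing: deviations of same-numbered libraries correlated at 0.0219, -0.375 and -0.0647 for numbers 1, 2 and 3. Those of differently numbered libraries ran from -0.307 to 0.396. With 3 libraries per group, these values cannot show whether libraries were prepared in pairs. With a replicate block, 4856 genes were called higher and 3374 lower, and no member's call changed. Receptors at a few reads, such as Esr2, Nr3c2 and Thrb, are limited by depth, and 3 libraries against 3 allow no exact permutation p under 0.1.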

Other observations

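Genes known as targets of the progesterone and oestrogen receptors in uterus and mammary gland were looked up after the level of Pgr was seen, so they are values and support nothing. Of the 12 listed, 4 passed the filter. Among these, Zbtb16, Klf9 and Fkbp5 are also in the list of glucocorticoid receptor targets, so their values are the same ones. Tnfsf11, the cytokine RANKL, stood at 2.46, 3.21 and 2.96 FPKM in RUNX1-RARA libraries, against 0.08, 0.044 and 0.054 FPKM in empty vector libraries (log2 fold change 1.87, SE 0.0778, limma adjusted p = 6.65e-09), and it passed only through the RUNX1-RARA libraries. Greb1, an oestrogen-induced co-activator gene, lay under the filter with 0.846, 0.881 and 0.709 FPKM in RUNX1-RARA libraries, against 0.013, 0.009 and 0.015 FPKM in empty vector libraries. Zbtb16, the zinc finger gene PLZF, stood at 2.37 ± 0.129 FPKM in RUNX1-RARA and 0.603 ± 0.0626 FPKM in empty vector (SD, n = 3 each), Klf9 was higher with a ratio of 1.21, and Fkbp5 was lower with a ratio of 0.824. The call of Klf9 was lost after TMM scaling (adjusted p = 0.0605), and that of Fkbp5 after scaling without the mitochondrially encoded genes (adjusted p = 0.841). Areg, Ihh, Wnt4, Hand2, Id4, Elf5 and Cited1, other targets in those tissues, were at or under 0.091 FPKM in every library.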
